A study of Mus musculus with 18 samples.

Results

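The SLAM family receptors examined here were Slamf7, Slamf8, Slamf9, Cd48, Cd84 and Ly9, which were taken by gene name as 6 of the 54446 genes in the deposited table. Their transcripts were followed in mouse eosinophils that had met apoptotic cells (ACs), with or without a further stimulus. The eosinophils were labelled C57BL/6 and came from the peritoneal cavity of NJ.1638 Il5Tg mice, whose Il5 transgene raises eosinophil numbers, so all 18 libraries, controls included, come from cells formed under excess IL-5. T and B lymphocytes were depleted with anti-Thy1.2 and anti-B220 beads before culture. The ACs were dexamethasone-treated thymocytes of wild-type mice, added at 5 per eosinophil over 18 hours, after which the eosinophils were pulled out again on anti-Siglec-F beads. In the Type 1 experiment the ACs were given with no other stimulus, with E. coli (E. coli + ACs) or with IFN-γ (IFN-γ + ACs). They were also given with both, a group called IFN-γ + E. coli + ACs or the combined stimulus. The paper describes the combined stimulus as IFN-γ followed by E. coli. In the IL-4 experiment the ACs were given with no other stimulus or together with IL-4 (IL-4 + ACs). Every group had 3 libraries, and the doses of the stimuli and the age and sex of the eosinophil donors were not given in the sources used here. Eosinophils cultured without ACs were not analysed here, so every difference below is between cells that had all met ACs.

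SLAM family receptors are immunoglobulin-like proteins on the surface of blood cells, and most of them bind a copy of themselves on a neighbouring cell. Slamf7, Cd84, Ly9, Slamf1, Slamf6 and Cd244a carry tyrosine motifs in their tails that recruit the small adaptors SAP and EAT-2, and through them Src-family kinases or phosphatases. Slamf8 and Slamf9 have short tails without these motifs and are best known from macrophages and other myeloid cells. Cd48 has no tail at all, is anchored to the membrane by a lipid, and is the ligand of Cd244a and Cd2. In eosinophils, CD48 and CD244 are known from the physical contact between eosinophils and mast cells.

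All 9 genes of the family that the table held lie on 1 stretch of chromosome 1, from 171559193 to 172590568 in GRCm38 (1.03 Mb). In chromosomal order they are Cd244a, Ly9, Slamf7, Cd48, Slamf1, Cd84 and Slamf6, followed after a gap by Slamf9 and Slamf8. Slamf7 spans 171632403 to 171653035 on the minus strand, Slamf9 spans 172475358 to 172478575 on the plus strand, and Slamf8 spans 172581758 to 172590568 on the minus strand. Cd48 spans 171682009 to 171705258 and Cd84 spans 171839697 to 171890718, both on the plus strand. Ly9, from 171588624 to 171607410 on the minus strand, lies wholly inside the span of Cd244a on the opposite strand in GENCODE, with an overlap of 18787 bases, whereas the shorter RefSeq span of Cd244a ends before Ly9. Whether reads were counted by strand is not stated for this table, so counts of Ly9 and Cd244a may share reads. The values are totals per gene and do not say which exons the reads came from.

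The 250 bases before the RefSeq start of 3 members are shown, because Slamf7 and Slamf8 were the members that rose most with IFN-γ and Slamf9 the member that fell most with the combined stimulus. Capitals mark motif matches that a search on both strands found. The windows, from RefSeq on GRCm38.p6 and written 5′ to 3′ along the gene, are chr1:171649000-171649249 (minus strand) for Slamf7, chr1:172590569-172590818 (minus strand) for Slamf8 and chr1:172475110-172475359 (plus strand) for Slamf9.
Slamf7: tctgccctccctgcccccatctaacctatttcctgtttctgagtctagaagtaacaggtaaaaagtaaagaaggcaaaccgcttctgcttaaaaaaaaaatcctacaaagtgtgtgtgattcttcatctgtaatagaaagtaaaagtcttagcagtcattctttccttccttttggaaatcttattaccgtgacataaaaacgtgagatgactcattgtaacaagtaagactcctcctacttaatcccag
Slamf8: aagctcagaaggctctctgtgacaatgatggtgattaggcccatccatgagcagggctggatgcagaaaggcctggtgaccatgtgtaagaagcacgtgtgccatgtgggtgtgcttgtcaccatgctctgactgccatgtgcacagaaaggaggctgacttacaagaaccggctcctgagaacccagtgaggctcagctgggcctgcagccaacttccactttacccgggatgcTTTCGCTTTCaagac
Slamf9: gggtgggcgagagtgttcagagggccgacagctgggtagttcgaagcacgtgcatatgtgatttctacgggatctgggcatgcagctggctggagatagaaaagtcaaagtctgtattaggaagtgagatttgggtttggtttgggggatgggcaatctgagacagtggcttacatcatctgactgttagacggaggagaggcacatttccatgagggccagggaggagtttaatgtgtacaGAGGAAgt

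The letters searched were TTCNNNNGAA, the spacing known for STAT6, GAAANNGAAA, the ISRE form bound by IRF proteins, GAGGAA, an ETS core such as PU.1 binds, and GGGNNNNNCC, a κB frame. In Slamf8, TTTCGCTTTC, the ISRE form read on the opposite strand, lay 15 to 6 bases before the start, and 2.97% of 32817 RefSeq promoter windows of this length held such a match. In Slamf9, GAGGAA lay 8 to 3 bases before the start, a match that 23.3% of windows held. The window of Slamf7 held none of these forms. The annotated span of Slamf7 in GENCODE reaches beyond its RefSeq start, so other start sites lie outside the window shown. Cd48 held none either, and Cd84 held only the κB frame, which 45.8% of windows held. These are matches of letters and not measured binding sites.

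The labelled cell type was checked against marker transcripts first. Siglecf and Ccr3, surface markers of eosinophils, were at normalized counts of 1514 to 3367 and 2623 to 4934 over the 18 libraries, while Epx, the eosinophil peroxidase, was at 25.7 or below. Summed over 9 eosinophil markers, libraries ranged from 10002 to 26577, lowest with IFN-γ + ACs at 10002 to 11251. Alox15 was the largest single part of this sum in every library, so the sum leans on that gene. With IFN-γ, 4 of the 7 eosinophil markers tested fell and none rose, while Ccr3 was not called (log2 -0.14). Macrophage markers were also present, with all 11 at a mean of at least 10 in each of the 6 groups. Their sum in the Type 1 experiment was 17526 to 23174 under ACs, 8338 to 10898 under E. coli + ACs, 29499 to 40054 under IFN-γ + ACs and 10179 to 11054 under the combined stimulus. In the IL-4 experiment it was 27099 to 40645 with ACs and 20798 to 36051 with IL-4 + ACs. Of the 11, 6 fell and none rose with E. coli, 5 rose and 1 fell with IFN-γ, 2 rose and 6 fell with both, and 2 fell with IL-4. C1qc, Lyz2 and C1qb made up most of the macrophage sum in every library, so it mainly follows these genes. Csf1r was not called with any stimulus (log2 -0.47 with E. coli, -0.15 with IFN-γ, -0.4 with both and -0.18 with IL-4). The sum over 14 thymocyte markers stayed between 59 and 292, although thymocytes had been added in excess. Sums over 5 B cell markers (12 to 90), 6 mast cell markers (6 to 68), 6 neutrophil markers (5 to 43), 5 dendritic cell markers (211 to 562, mostly Itgax) and 6 NK or T cell markers (0 to 72) were low, and Ncr1 and Prf1, which define NK cells, were at 0 in all 18 libraries. Macrophages are known to carry SLAM receptors, and the part of these marker changes in the results below was not tested. Reads on genes ran from 779421 to 7782072 per library, with both libraries numbered 3 in the IL-4 experiment far below the rest at 779421 (ACs) and 849705 (IL-4 + ACs). In those, 1 read stood for a normalized count of 5.36 and 5.14, so low values there are coarse.

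**Figure D1:**
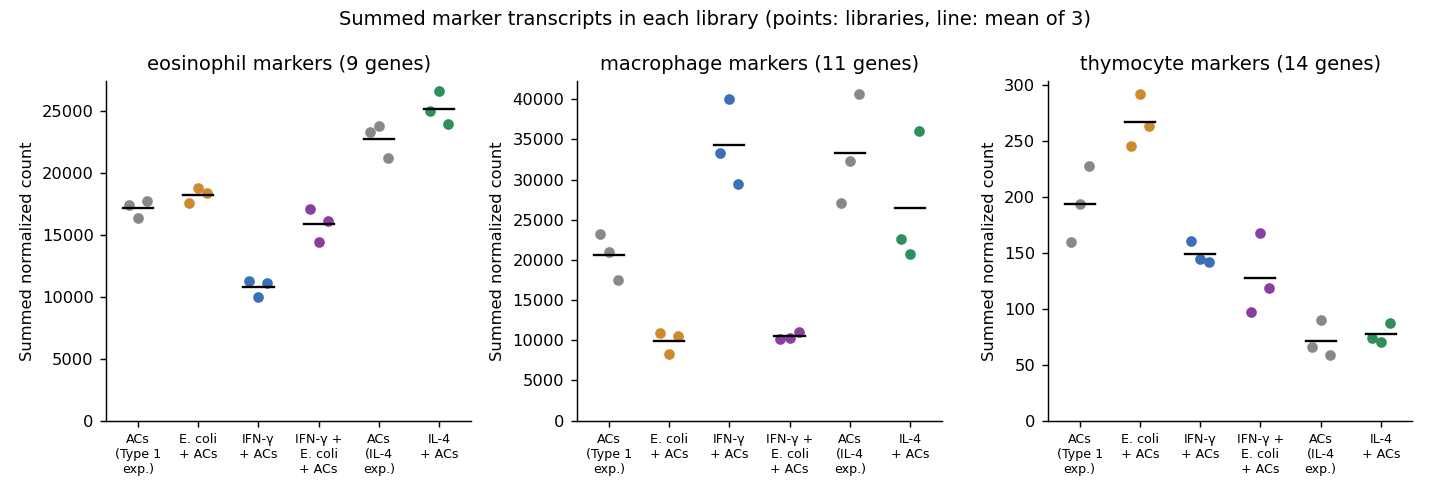
Summed normalized counts (y axes, from 0) of 9 eosinophil, 11 macrophage and 14 thymocyte marker transcripts in each of the 18 libraries (points), by group (x axes), with the mean of 3 libraries as a line. Macrophage sums lay between 8338 and 11054 in the groups given E. coli and at 17526 or above in all others, and thymocyte sums never passed 292.

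With each stimulus of the Type 1 experiment the receptors moved in different directions. Slamf7 rose with all 3 stimuli, Slamf8 rose with both that held IFN-γ, Ly9 rose with IFN-γ + ACs, Cd48 fell with all 3, and Slamf9 fell with IFN-γ + E. coli + ACs. A transcript was called when its Benjamini-Hochberg adjusted p over all genes tested was under 0.05 and its change was at least 1.5-fold, both from limma on log2 of the normalized count plus 1. All 6 members passed the filter on low values in both experiments, which kept genes with a mean of at least 10 over the libraries of the fit. With E. coli + ACs, 2 of 6 members were called, beside 10.3% of all genes tested. IFN-γ + ACs gave 4 of 6, beside 21.4%, and the combined stimulus gave 4 of 6, beside 31.9%. With IL-4 + ACs none of the 6 was called, beside 1.09%, and 1 had an unadjusted p under 0.05. On reads recovered from the values, edgeR and DESeq2 also called none with IL-4. Groups of 3 libraries did not overlap for 3 members with E. coli, 5 with IFN-γ and 4 with both, beside 38.3%, 42.9% and 48.8% of all genes tested. The median log2 fold change of the 6 members was -0.01 with E. coli, 0.63 with IFN-γ, 0.15 with both and -0.29 with IL-4, where the median over all genes tested was 0.00, 0.00, -0.05 and -0.01. The 3 Type 1 comparisons share the same ACs libraries and are not independent of each other. In bulk RNA, fewer cells of a type and less RNA per cell cannot be told apart.

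**Figure D2:**
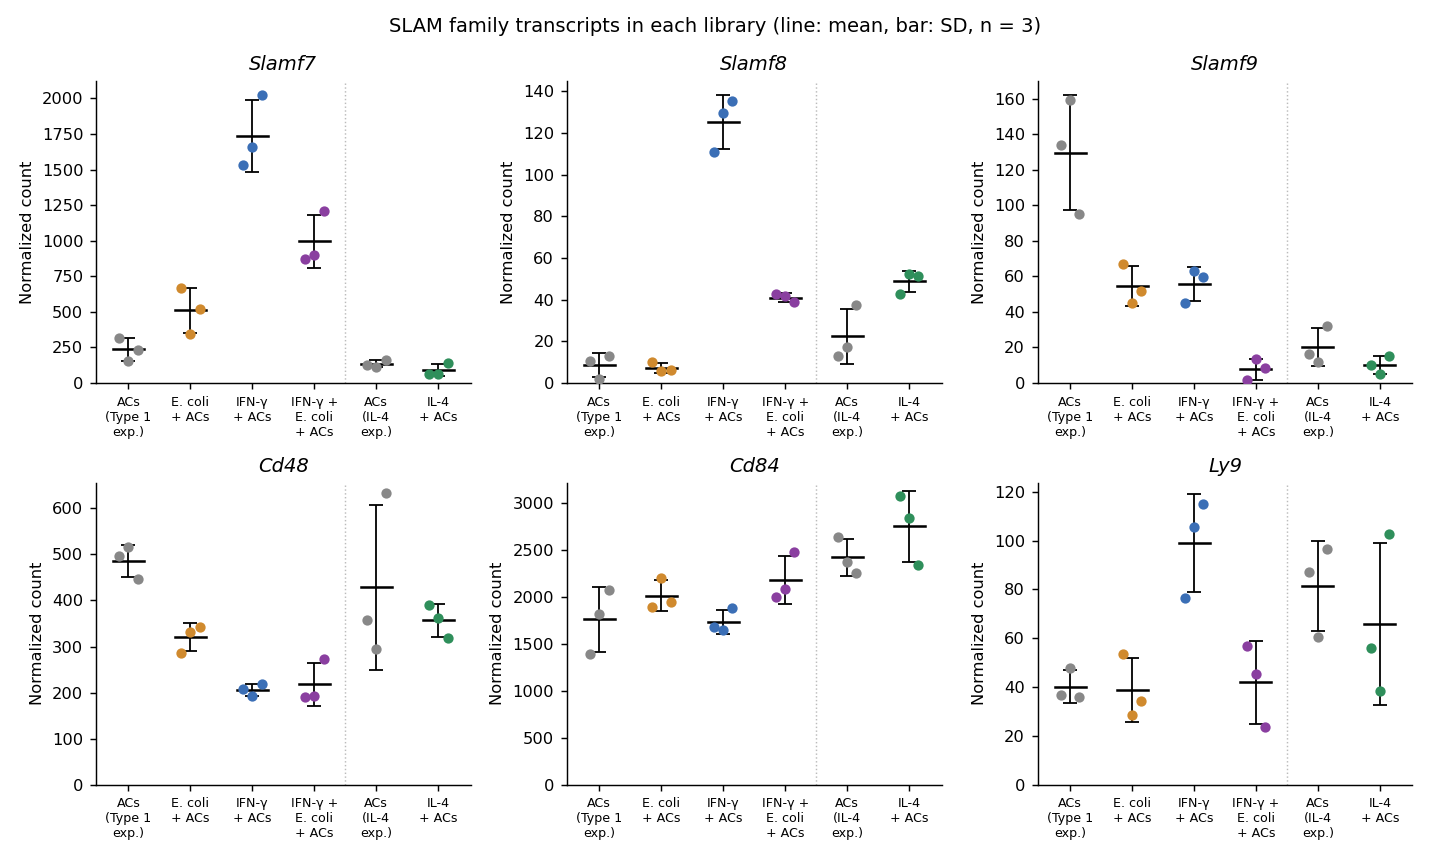
Normalized counts (y axes, from 0) of the 6 receptors in each of the 18 libraries (points) by group (x axes), with the mean as a line and the SD as a bar (n = 3). The dotted line divides the Type 1 experiment from the IL-4 experiment. Slamf7 and Slamf8 stood highest with IFN-γ + ACs, and Slamf9 was highest with ACs in the Type 1 experiment. No stimulated group of Cd84 stood apart from the ACs libraries of its experiment.

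Slamf7, also known as CRACC or CD319, is a self-ligand receptor of NK cells, plasma cells and activated myeloid cells. In the Type 1 experiment its normalized counts were 318, 158 and 232 under ACs and 665, 347 and 521 under E. coli + ACs. They were 1535, 1655 and 2023 under IFN-γ + ACs and 874, 899 and 1211 under the combined stimulus. The 4 groups did not overlap, and stood in the order ACs, E. coli + ACs, the combined stimulus and IFN-γ + ACs. Means were 236 ± 80.2, 511 ± 159, 995 ± 188 and 1738 ± 254 (SD, n = 3) in that order. Over ACs, Slamf7 rose 2.17-fold with E. coli (log2 1.12 ± 0.23 SE, limma adjusted p = 0.0024), 7.58-fold with IFN-γ (log2 2.92 ± 0.23, adjusted p = 1.3e-08) and 4.32-fold with both (log2 2.11 ± 0.23, adjusted p = 6.8e-07). The summed macrophage markers were lower with E. coli + ACs and with the combined stimulus than with ACs in every library, and higher with IFN-γ + ACs. Their part in the changes of Slamf7 was not tested.

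The response of Slamf7 to E. coli changed sign when IFN-γ was present. E. coli raised it among cells without IFN-γ, while among cells with IFN-γ the addition of E. coli lowered it 1.75-fold (log2 -0.81 ± 0.23, limma adjusted p = 0.018). The interaction term, which measures how far the combined stimulus departs from the sum of the single ones on the log2 scale, was -1.93 ± 0.33 (adjusted p = 0.0011). Slamf7 was the 1 member of 6 whose interaction was called in limma, beside 7.44% of all genes tested, while edgeR called 2 members, DESeq2 called 3, and limma called 3 without replicate 2 of the combined stimulus. IFN-γ raised Slamf7 also among cells given E. coli, by 1.99-fold (log2 0.99 ± 0.23, adjusted p = 0.0037). The fall with E. coli in the presence of IFN-γ lost its call without replicate 3 of IFN-γ + ACs (log2 -0.70, adjusted p = 0.064), without replicate 1 of the combined stimulus (log2 -0.73, adjusted p = 0.071), and with all 18 libraries in 1 fit (adjusted p = 0.052).

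**Figure D3:**
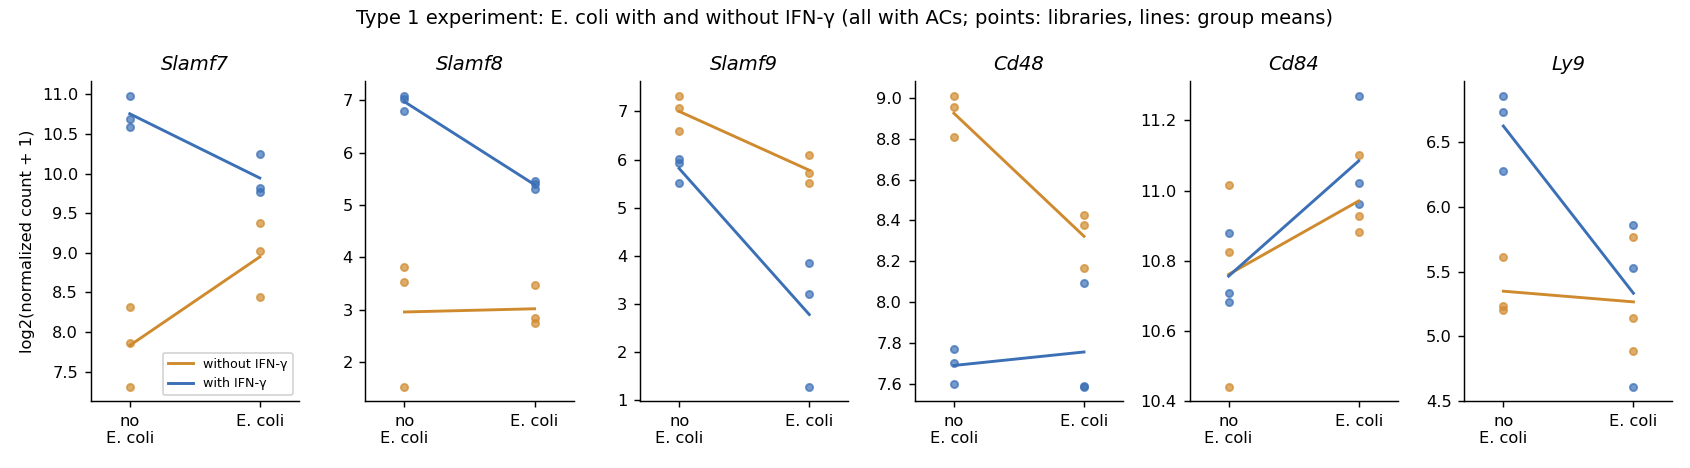
log2(normalized count + 1) of the 6 receptors (y axes, each on its own scale) in the 12 libraries of the Type 1 experiment (points), without and with E. coli (x axes), for cells without IFN-γ (orange) and with IFN-γ (blue); lines join group means. The lines of Slamf7 run in opposite directions (interaction -1.93), those of Slamf9 both run down, and those of Cd84 stay within a narrow range.

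Slamf8, also called BLAME, is a short-tailed receptor of myeloid cells that is known to restrain the phagocyte NADPH oxidase. In the Type 1 experiment Slamf8 was near the limit of detection without IFN-γ. Its normalized counts were 10.6, 1.88 and 13.1 under ACs and 10.1, 5.72 and 6.16 under E. coli + ACs, and 2 reads carried the lowest of these. With IFN-γ + ACs the counts were 111, 130 and 135, and under the combined stimulus they were 42.8, 41.5 and 38.6. Neither IFN-γ group overlapped a group of this experiment without IFN-γ, and the libraries of the combined stimulus lay closest together. Slamf8 rose 16.2-fold with IFN-γ (log2 4.02 ± 0.46 SE, limma adjusted p = 1.9e-06) and 5.4-fold with both (log2 2.43 ± 0.46, adjusted p = 3.4e-04). These folds depend on the added count of 1, and without replicate 2 of ACs, which had 2 reads, they were 3.30 and 1.72 on the log2 scale. The group means under ACs and E. coli + ACs were 8.5 ± 5.87 and 7.31 ± 2.38 (SD, n = 3). With E. coli alone the log2 difference was 0.06, with a 95% interval of -0.90 to 1.03 that reaches from a fall to a rise. Among cells with IFN-γ, E. coli lowered Slamf8 3-fold (log2 -1.58 ± 0.46, adjusted p = 0.020), a call that was lost without replicate 2 of IFN-γ + ACs (adjusted p = 0.066) or without its replicate 3 (adjusted p = 0.053). The interaction was -1.65 ± 0.65 and did not pass the threshold (adjusted p = 0.14), and without replicate 2 of ACs it was -0.93 (adjusted p = 0.28). Summed macrophage markers were 29499 to 40054 with IFN-γ + ACs, 17526 to 23174 with ACs and 10179 to 11054 with the combined stimulus. Their part in the changes of Slamf8 was not tested.

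Slamf9 is the second short-tailed member and is known from macrophages and plasmacytoid dendritic cells. Its normalized counts were 134, 160 and 95.4 under ACs, 67, 45 and 51.9 under E. coli + ACs, 44.9, 63 and 59.5 under IFN-γ + ACs, and 1.43, 13.4 and 8.28 under the combined stimulus. The ACs libraries lay above all others, those of the single stimuli overlapped each other, and those of the combined stimulus lay below all others of this experiment. Slamf9 fell 18.6-fold with both stimuli (log2 -4.22 ± 0.45 SE, limma adjusted p = 5.4e-07). The combined group rested on 18 reads in all and on 1 read in replicate 1, and the fall was -3.47 on the log2 scale without that library and -3.50 with an added count of 5. With a single stimulus the log2 differences were -1.22 ± 0.45 for E. coli (adjusted p = 0.083) and -1.19 ± 0.45 for IFN-γ (adjusted p = 0.058). Neither passed in limma, although no library overlapped those with ACs. Both passed in edgeR (adjusted p = 0.0030 and 0.0026) and in DESeq2 (1.9e-04 and 2.9e-04) on the recovered reads, and with an added count of 5 (0.018 and 0.011). Both also passed without replicate 1 of the combined stimulus, the library with 1 read, which shares in the estimate of the spread (adjusted p = 0.0050 and 0.0031), and without its replicate 2 (0.035 and 0.024). Without its replicate 3, the difference with IFN-γ passed (0.049).

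Each stimulus lowered Slamf9 further in the presence of the other. E. coli lowered it 8.17-fold among cells with IFN-γ (log2 -3.03 ± 0.45, limma adjusted p = 1.0e-04), and IFN-γ lowered it 7.98-fold among cells with E. coli (log2 -3.00 ± 0.45, adjusted p = 7.6e-05). Without replicate 1 of the combined stimulus these log2 values were -2.28 and -2.25. The interaction was -1.81 ± 0.64 and was not called (adjusted p = 0.090). Without replicate 2 of the combined stimulus it was -2.34 and was called (adjusted p = 0.013), and DESeq2 called it at -1.53 (adjusted p = 0.037). Without replicate 1, the library with 1 read, it was -1.06 (adjusted p = 0.13), and with an added count of 5 it was -1.21 (adjusted p = 0.11). The summed macrophage markers were lower with E. coli + ACs and with the combined stimulus than with ACs, and higher with IFN-γ + ACs. Their part in the changes of Slamf9 was not tested.

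Cd48, the lipid-anchored ligand of Cd244a and Cd2, was lower in all 3 stimulated groups of the Type 1 experiment. Its normalized counts were 496, 515 and 447 under ACs, 286, 331 and 343 under E. coli + ACs, 207, 193 and 218 under IFN-γ + ACs, and 191, 192 and 272 under the combined stimulus. The ACs libraries lay above all others and the E. coli + ACs libraries above both groups with IFN-γ, which overlapped each other. Cd48 fell 1.52-fold with E. coli (log2 -0.60 ± 0.15 SE, limma adjusted p = 0.011), 2.35-fold with IFN-γ (log2 -1.24 ± 0.15, adjusted p = 4.9e-06) and 2.25-fold with both (log2 -1.17 ± 0.15, adjusted p = 6.2e-06). The fall with E. coli was near the threshold. It was not called without replicate 2 of ACs (log2 -0.56, adjusted p = 0.058), without replicate 1 of E. coli + ACs (log2 -0.52, adjusted p = 0.070) or with all 18 libraries in 1 fit (adjusted p = 0.066). Among cells with IFN-γ, E. coli made a log2 difference of 0.07, with a 95% interval of -0.25 to 0.39. The interaction was 0.67 ± 0.22 (adjusted p = 0.065) and passed in edgeR (0.72, adjusted p = 0.042) and DESeq2 (0.72, adjusted p = 0.018), among genes with a mean of at least 50 (adjusted p = 0.049), and without replicate 2 of the combined stimulus (0.75, adjusted p = 0.036). An unnamed transcript, Gm37010, overlaps Cd48 on the same strand over 1704 bases.

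Cd84, a self-ligand receptor found on many leukocytes and known to temper mast cell activation, had normalized counts of 1389 to 3072 in all 18 libraries. Its values were 1389, 1814 and 2072 under ACs, 1888, 2195 and 1947 under E. coli + ACs, 1671, 1643 and 1882 under IFN-γ + ACs, and 1993, 2078 and 2469.7 under both. The E. coli + ACs and combined libraries all lay above those with IFN-γ + ACs, and no stimulated group stood apart from ACs. The log2 differences over ACs were 0.21, -0.01 and 0.32 in that order of stimuli, with 95% intervals of -0.07 to 0.49, -0.29 to 0.28 and 0.04 to 0.61. None passed the threshold (limma adjusted p = 0.36, 0.98 and 0.065), and no interval reached beyond 0.61 on the log2 scale. Cd84 rested on at least 420 reads in every library.

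Ly9, or CD229, is a self-ligand receptor of lymphocytes and some macrophages. It had normalized counts of 36.6, 47.9 and 35.9 under ACs, 53.6, 28.6 and 34.3 under E. coli + ACs, 76.5, 105 and 115 under IFN-γ + ACs, and 57, 45.2 and 23.5 under both. The IFN-γ + ACs libraries lay above all others of this experiment, and the other groups overlapped. Ly9 rose 2.42-fold with IFN-γ (log2 1.27 ± 0.32 SE, limma adjusted p = 0.0053), and among cells with IFN-γ it was 2.44-fold lower when E. coli was added (log2 -1.29 ± 0.32, adjusted p = 0.0071). With both stimuli the log2 difference over ACs was -0.02, with a 95% interval of -0.68 to 0.65. The interaction was -1.21 ± 0.45 (adjusted p = 0.11). Cd244a, which encloses Ly9 on the other strand in the GENCODE annotation, fell with IFN-γ (log2 -1.11).

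**Figure D4:**
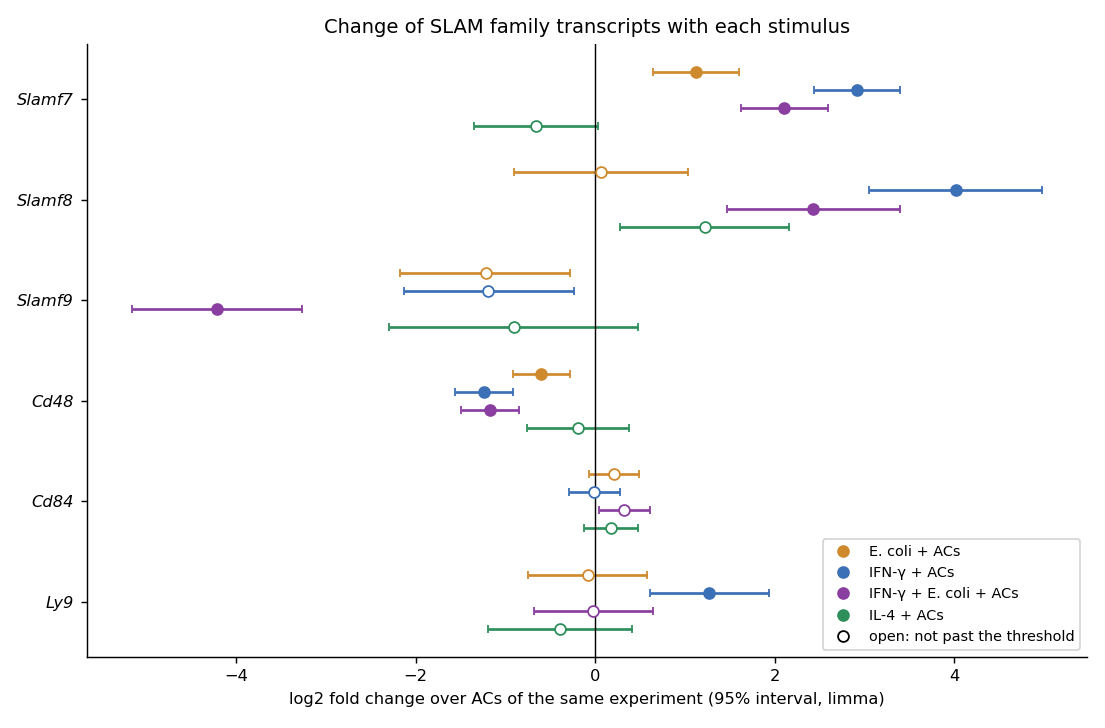
log2 fold change (x axis) of the 6 receptors (y axis) with each stimulus over ACs of the same experiment, with 95% intervals from limma. Filled points passed the threshold, among them Slamf8 with IFN-γ (4.02) and Slamf9 with the combined stimulus (-4.22), and the IL-4 points are all open.

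Among the 6 members, the addition of E. coli to cells with IFN-γ lowered 4, Slamf7, Slamf8, Slamf9 and Ly9, and raised none. Of all genes tested, 14.6% were called in either direction and 8.61% were called lower. Without replicate 3 of IFN-γ + ACs only 2 of 6 were called. Slamf1, a family receptor outside the 6, rose in this comparison (log2 1.89 ± 0.21, limma adjusted p = 6.1e-06). Slamf6 and Cd244a, also outside the 6, were not called in it. Among cells with E. coli, those also given IFN-γ had higher Slamf7 and Slamf8 and lower Slamf9, which is 3 of 6, beside 19.4%. Slamf8 rose 5.18-fold in that comparison (log2 2.37 ± 0.46, limma adjusted p = 8.9e-04), and Cd48 differed by -0.57 ± 0.15 (adjusted p = 0.010), short of 1.5-fold. Cd48 was called there, as the fourth member, without replicate 1 of E. coli + ACs (log2 -0.65, adjusted p = 0.015), without replicate 3 of the combined stimulus (log2 -0.73, adjusted p = 0.0012) and after upper quartile rescaling (log2 -0.67, adjusted p = 0.0028). When the 2 single stimuli were set against each other, 4 of 6 were called, beside 16.6%. Slamf7 (log2 1.80 ± 0.23, adjusted p = 9.9e-06), Slamf8 (log2 3.96 ± 0.46, adjusted p = 3.1e-06) and Ly9 (log2 1.36 ± 0.32, adjusted p = 0.0041) were higher with IFN-γ + ACs than with E. coli + ACs. Cd48 was lower (log2 -0.63 ± 0.15, adjusted p = 0.0052) and fell short of 1.5-fold without replicate 3 of E. coli + ACs (log2 -0.58). Slamf9 differed by 0.03, with a 95% interval of -0.91 to 0.98.

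IL-4, the cytokine that drives type 2 responses, gave no call among the 6 receptors. Slamf7 had normalized counts of 129, 114 and 161 with ACs and 65.5, 64.8 and 139 with IL-4 + ACs, and the groups overlapped through replicate 3 of IL-4 + ACs. Its log2 difference was -0.66 ± 0.31 SE (limma adjusted p = 0.54). Slamf8 had 12.8, 17.1 and 37.5 with ACs and 42.9, 52.2 and 51.4 with IL-4 + ACs. It was the 1 member whose groups did not overlap, beside 17.3% of all genes tested, and its log2 difference was 1.22 ± 0.42 (adjusted p = 0.38). The high ACs value came from replicate 3, where 7 reads carried it. Without replicate 3 of both groups, the shallow libraries, Slamf7 differed by -0.88 (adjusted p = 0.011) and Slamf8 by 1.61 (adjusted p = 0.0073), and both were then called, as were 656 of 10629 genes tested in place of 116 of 10669.

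The remaining receptors had wide intervals with IL-4 apart from Cd84. Slamf9 had normalized counts of 16.5, 11.7 and 32.2 with ACs and 9.85, 5.27 and 15.4 with IL-4 + ACs (log2 difference -0.91, 95% interval -2.30 to 0.48). Cd48 had 358, 294 and 633 with ACs and 390.5, 361 and 319 with IL-4 + ACs (log2 -0.19, interval -0.76 to 0.38). The highest of these again came from replicate 3 of ACs, and the difference was 0.13 without that library. Ly9 had 87.2, 60.7 and 96.5 with ACs and 56.2, 38.5 and 103 with IL-4 + ACs (log2 -0.39, interval -1.19 to 0.41). Cd84 had 2636, 2367 and 2252 with ACs and 3072, 2834 and 2334 with IL-4 + ACs (log2 0.18, interval -0.13 to 0.48). Groups overlapped for all 4.

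Whether the IL-4 response differed from the IFN-γ response was tested directly, each over the ACs libraries of its own experiment, in a fit of all 18 libraries. The difference was called for 4 of 6 members, beside 14.3% of all genes tested. The IL-4 minus IFN-γ value for Slamf7 was -3.58 ± 0.40 SE on the log2 scale (limma adjusted p = 1.5e-06). It was -2.80 ± 0.67 for Slamf8 (adjusted p = 0.0059), -1.67 ± 0.50 for Ly9 (adjusted p = 0.029) and 1.05 ± 0.29 for Cd48 (adjusted p = 0.017). Slamf9 gave 0.28, with a 95% interval of -1.24 to 1.79, and Cd84 gave 0.18, with an interval of -0.23 to 0.59. For Slamf8 the value was -2.08 without replicate 2 of ACs in the Type 1 experiment. The call for Cd48 was lost without replicate 2 of ACs in the IL-4 experiment (0.82, adjusted p = 0.054). The call for Ly9 was lost without any 1 of 8 libraries (adjusted p from 0.056 to 0.089), namely replicates 1 and 3 of ACs in each experiment, replicates 2 and 3 of IFN-γ + ACs and replicates 1 and 2 of IL-4 + ACs, and with no filter on low values (adjusted p = 0.073). Stimulus and experiment enter this contrast together, so a difference between experiments in how cells respond to any stimulus cannot be told apart from it.

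The ACs libraries themselves differed between the experiments. In the IL-4 experiment Slamf9 was 6.57-fold lower than in the Type 1 experiment (log2 -2.72 ± 0.36 SE, limma adjusted p = 6.5e-04), with means of 20.1 ± 10.7 and 130 ± 32.3 (SD, n = 3). Slamf7 was lower (log2 -0.77 ± 0.25, adjusted p = 0.049) and Ly9 higher (log2 0.99 ± 0.25, adjusted p = 0.019), so that 3 of 6 members were called, beside 19.2% of all genes tested. The call for Slamf7 was lost without replicate 1 or 2 of ACs in the IL-4 experiment (adjusted p = 0.11 and 0.12), without replicate 1 or 3 of ACs in the Type 1 experiment (0.19 and 0.14), and with all 18 libraries in 1 fit (0.051). The call for Ly9 was lost without replicate 1 of the IL-4 experiment (0.068) or replicates 1 or 3 of the Type 1 experiment (0.072 and 0.078). Cd84 was higher in the IL-4 experiment (log2 0.48 ± 0.15, limma adjusted p = 0.043) but short of 1.5-fold. It was called without replicate 3 of ACs in the Type 1 experiment (log2 0.60, adjusted p = 0.038). Experiment and any difference in preparation cannot be told apart here.

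Over all 6 groups, Slamf7 was highest with IFN-γ + ACs and lowest with IL-4 + ACs, and only the 3 lowest groups overlapped their neighbours in the order of means. Slamf8 was highest with IFN-γ + ACs, followed by IL-4 + ACs and the combined stimulus, whose libraries lay close together at 42.9 to 52.2 and 38.6 to 42.8. The lowest 3 groups of Slamf8 overlapped their neighbours. Slamf9 was highest with ACs of the Type 1 experiment and lowest with the combined stimulus, whose libraries overlapped those with IL-4 + ACs. Cd48 was highest with ACs of both experiments and lowest with IFN-γ + ACs, and its only step without overlap was from E. coli + ACs down to the combined stimulus. For Cd84 and Ly9 every group overlapped its neighbours in the order.

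The 3 other receptors of the family in the table were Slamf1, Slamf6 and Cd244a. Slamf1, a self-ligand receptor that is also known to bind outer membrane porins of E. coli, rose with every stimulus. Its means in the Type 1 experiment were 13.8 ± 2.98 under ACs, 177 ± 50.2 under E. coli + ACs, 113 ± 9.28 under IFN-γ + ACs and 424 ± 62.9 under both (SD, n = 3). In the other experiment they were 18.4 ± 2.11 under ACs and 171 ± 28.7 under IL-4 + ACs. The log2 fold changes were 3.57, 2.96, 4.85 and 3.14 (limma adjusted p = 2.1e-09, 4.4e-09, 2.4e-12 and 4.0e-04). The interaction of IFN-γ and E. coli was called for Slamf1 too, at -1.68 ± 0.30 on the log2 scale (limma adjusted p = 0.002). Even so, the combined stimulus gave the highest level. Slamf1 was the SLAM receptor that IL-4 raised. Its promoter window held TTCTCAAGAA, a match to the STAT6 spacing, 148 to 139 bases before the start, a form that 5.85% of windows held. This is a match of letters, binding was not measured, and Slamf1 rose with the other stimuli as well. Cd244a, the receptor for Cd48, fell with E. coli (log2 -0.65 ± 0.18, adjusted p = 0.018), IFN-γ (log2 -1.11 ± 0.18, adjusted p = 9.3e-05) and both (log2 -1.32 ± 0.18, adjusted p = 7.9e-06). With IL-4 it was at 341, 342 and 355 beside 281, 282 and 295 with ACs, a log2 difference of 0.27 ± 0.14 that did not pass (adjusted p = 0.57). Slamf6 was at a mean of 9.45 to 22.2 in the groups and was not called with any stimulus.

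Genes that act with the receptors were followed in a list of 40 outside the family, of which 34 were tested in each experiment. The adaptors were at few reads, since Sh2d1a, which encodes SAP, and Sh2d1b1, which encodes EAT-2, had normalized counts of 0 to 21.5 and 0 to 16.1 per library and Sh2d1b2 had no read. Of the 34, 4 rose and 1 fell with E. coli, 2 rose and 1 fell with IFN-γ, 8 rose and 1 fell with both, and none was called with IL-4. These are 5, 3, 9 and 0 of 34, beside 10.3%, 21.4%, 31.9% and 1.09% of all genes tested, so with IFN-γ and with both the list lay below the share over all genes. Median log2 fold changes of the list were 0.31, 0.09, 0.32 and -0.05, and those over all genes tested were 0.00, 0.00, -0.05 and -0.01. Among 9 kinases, Src rose with E. coli (log2 1.90), IFN-γ (2.28) and both (3.18), from normalized counts of 3.25 to 12.2 with ACs. Fyn, the kinase that SAP brings to the receptors, fell with E. coli (log2 -0.82, limma adjusted p = 0.043) and rose with IFN-γ (log2 1.20, adjusted p = 0.0018). Fgr fell with IFN-γ (log2 -0.64), and Syk rose with both (log2 0.61). Ptpn11, the phosphatase SHP-2, rose with E. coli (log2 0.67) and with both (log2 0.73), and the signalling genes Prkcq (0.96) and Shc1 (0.71) rose with both. Itgam, the integrin chain of Mac-1 that is known to work with Slamf7 in phagocytosis, rose with E. coli (log2 0.85, adjusted p = 1.7e-05) and with both (log2 1.23, adjusted p = 3.2e-08). Of genes tied to the phagosome, Ncf1 rose with E. coli (log2 0.70) and both (0.88), Cybb, the NADPH oxidase subunit, rose with both (0.69), and Uvrag, a partner of Slamf1 in autophagy-related complexes, fell with both (-1.06). Cd2, the second receptor for Cd48 and also a thymocyte marker, was tested in the Type 1 experiment and was not called.

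Genes that lie between the SLAM receptors were counted in the same way. Of 40 genes of the table outside the family on this stretch, 10 were tested among the Type 1 libraries and 13 among the IL-4 libraries. Of the 10, 1 rose with E. coli, 1 rose with IFN-γ, and 1 rose and 2 fell with both, while none of the 13 was called with IL-4. Beside 10.3%, 21.4%, 31.9% and 1.09% of all genes tested, none of these counts exceeds the share over all genes. Tagln2, which lies between Slamf9 and Slamf8 and encodes the actin-binding transgelin-2, rose with E. coli (log2 0.96 ± 0.14 SE, limma adjusted p = 9.4e-05) and with both (log2 0.66 ± 0.14, adjusted p = 0.0011). Pea15a rose with IFN-γ (log2 0.74 ± 0.24, adjusted p = 0.026), and Igsf8, an immunoglobulin family member, fell with both (log2 -0.73 ± 0.22, adjusted p = 0.013). Gm37010, which shares bases with Cd48, fell with both (log2 -2.18 ± 0.68, adjusted p = 0.017). SLAM genes that follow each other along the chromosome differed in direction, since Slamf7 rose and Cd48 fell with all 3 Type 1 stimuli, and Slamf9 fell while Slamf8 rose with the combined one.

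**Figure D5:**
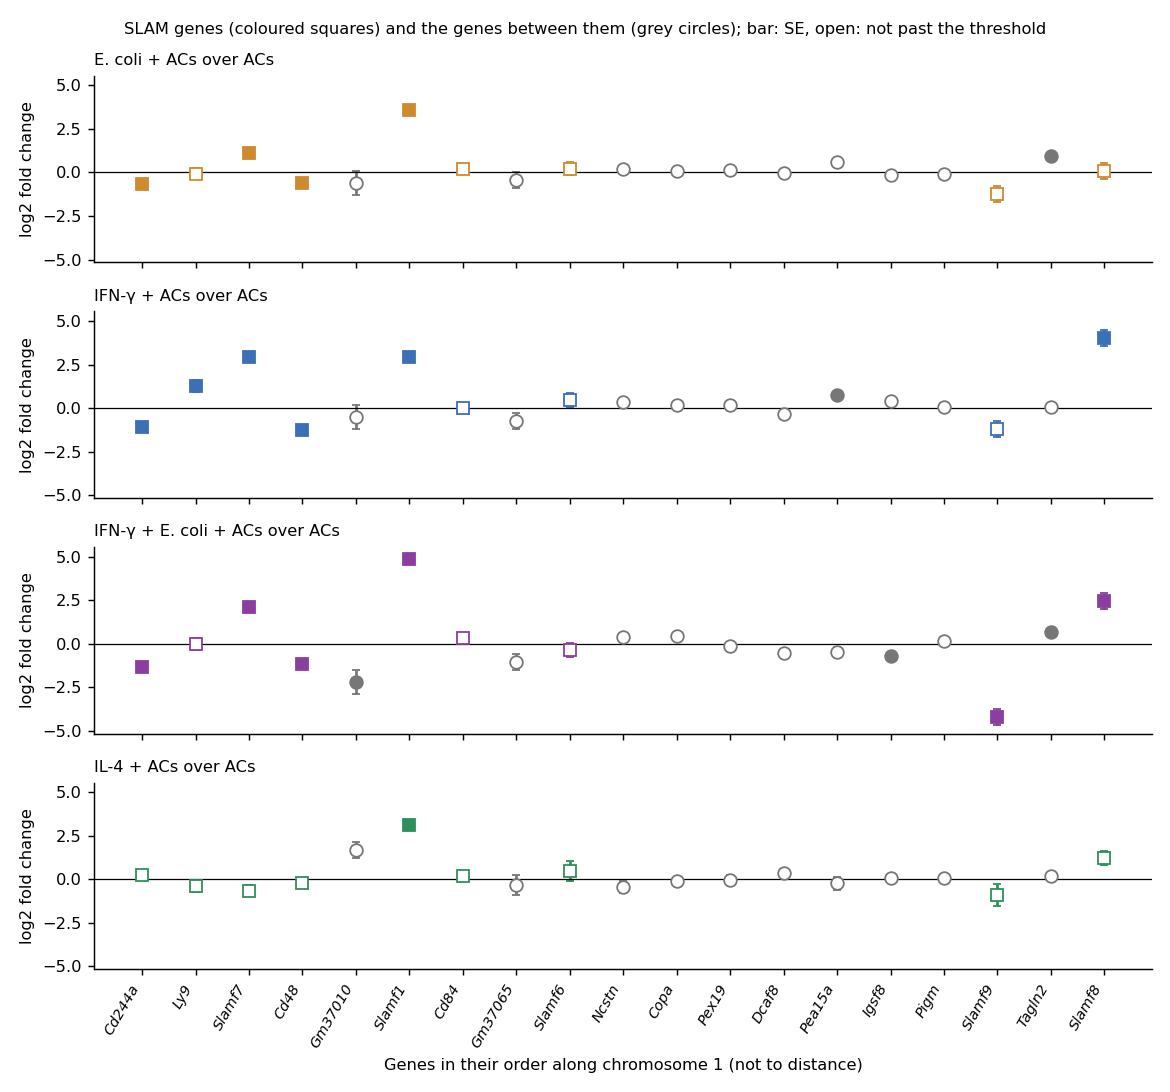
log2 fold change (y axes, bars are SE) with each stimulus over ACs of the same experiment for the 9 SLAM genes (coloured squares) and the 10 other genes tested in both experiments (grey circles), in their order along chromosome 1 and not to distance. Filled symbols passed the threshold, and Slamf1 is the SLAM gene that passed in all 4 panels.

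The genes most like each member were found as those with the smallest root mean square difference from it over the 4 log2 fold changes with ACs, among 6891 genes with a mean of at least 50 over the 18 libraries. Slamf7 was nearest to Hmox1 (difference 0.23), the heme oxygenase, which changed by 0.87, 2.59, 1.98 and -0.82 with E. coli, IFN-γ, both and IL-4, and then to Nrp2 (0.36) and Srxn1 (0.38). For Slamf8 the nearest were F830016B08Rik at 0.43, Hilpda at 0.69 and Tgm2, a transglutaminase, at 0.80. Its own log2 values with IFN-γ and with both moved to 3.30 and 1.72 without replicate 2 of ACs. Slamf9 was nearest to Arl11 (0.41), a small GTPase that changed by -1.46, -1.75, -3.85 and -0.50, and then to Padi2 (0.60) and Cd93 (0.63). Ly9 was nearest to Plin2 (0.13), a coat protein of lipid droplets, then to Cstb (0.15) and Gm12840 (0.15). The nearest to Cd48 were Coro7 at 0.08, Mrpl33 at 0.09 and Fam173a at 0.10, and to Cd84 Arpc2 at 0.03, Med11 at 0.04 and Chtop at 0.04. These differences depend on how far a member itself changed, so they do not rank the members.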

How the data were processed

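CEL-Seq2 libraries, which sample the 3′ ends of transcripts, were sequenced. The authors deposited 1 table of signal per gene and library, reads on the gene divided by a DESeq2 size factor, on GRCm38. The submitters' processing notes name Trim Galore, cutadapt 1.10, TopHat2 2.1.0, Bowtie2 2.2.6, HTSeq 0.6.1 and DESeq2 1.26.0, and the methods also mention fastp with STAR, which those notes do not list. Values were whole multiples of 1 read for 100.0% of entries (tolerance 0.011 normalized counts). Identifiers were matched to symbols for 54409 of 54446 genes. Comparisons used limma 3.58.1 (lmFit, eBayes with trend; R 4.3.3) on log2(value + 1), among genes with a mean of at least 10 over the 12 Type 1 libraries, the 6 IL-4 libraries, the 6 ACs libraries or all 18, and the fit was tested on simulated data. Members and lists were chosen with earlier results of these data known. Named were the members, the genes of the SLAM lists that were called or define a list, the 3 genes most like each member, and genes between the SLAM genes that were called or adjoin a member. Alternatives were edgeR 4.0.16 and DESeq2 1.42.0 on recovered reads (1227 and 1249 genes called with E. coli, 2227 and 2215 with IFN-γ, 3276 and 3234 with both, 212 and 209 with IL-4), a pseudocount of 5, other filters, upper quartile rescaling, no fold threshold, a replicate block, all 18 libraries in 1 fit and each library left out. Replicates were labelled as separate samples, with a chi-square per degree of freedom between them of 4.19 to 14.69, and p-values measure the spread between them. Same-numbered libraries of IFN-γ + ACs and the combined stimulus deviated together from their group means (correlations of 0.17, 0.18 and 0.25 over 6747 genes). They were treated as paired only in the alternatives with a replicate block, and the main comparisons did not pair them. In every other pair of groups at least 1 correlation was 0.1 or below (-0.12 to 0.12 over both experiments). Promoter sequences are from RefSeq, and Ly9 was not matched there.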

Additional observations from a re-analysis of the deposited data

Results flagged for a closer look

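These 5 results came up because a response differed between conditions by a test of the difference itself. The interaction of IFN-γ and E. coli was -1.93 for Slamf7 on the log2 scale (limma adjusted p = 0.0011), as the combined stimulus stood below what the single ones add up to. Slamf1, a family receptor outside the members, also had a called interaction below 0 on the log2 scale, at -1.68 (limma adjusted p = 0.002). Unlike Slamf7, it was highest with the combined stimulus, and E. coli raised it in the presence of IFN-γ (log2 1.89). The IL-4 response minus the IFN-γ response was -3.58 for Slamf7, -2.80 for Slamf8, -1.67 for Ly9 and 1.05 for Cd48 (adjusted p = 1.5e-06, 0.0059, 0.029 and 0.017). The causes of these differences were not tested.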

How the results depend on the processing

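Of the values of single receptors under alternatives, 1134 kept direction and call, 28 gained and 27 lost the call, and 29 changed sign. In many alternatives the log2 value could not change, so the kept directions there are no evidence of stability. Those were no fold threshold, other filters, the replicate block, all 18 libraries in 1 fit, and a left-out library of a group not compared. The number of receptors called was 1 in place of 2 for E. coli with all 18 libraries in 1 fit (1 to 3 with a library left out), 2 in place of 0 for IL-4 without replicate 3 of both groups (0 to 2), and 2 to 4 in place of 4 for E. coli in the presence of IFN-γ with a library left out. For the interaction it was 3 in DESeq2, 2 in edgeR and 2 among genes with a mean of at least 50, in place of 1 (1 to 3 with a library left out), and for ACs against ACs 1 to 3 in place of 3. Differences that changed sign were, for Slamf8 with E. coli, -0.26 in DESeq2, -0.26 in edgeR and -0.03 with an added count of 5 (-0.65 to 0.49 with a library left out); for Ly9 with both stimuli, 0.07 in DESeq2 and 0.06 in edgeR (-0.28 to 0.34). After upper quartile rescaling, Ly9 differed by -0.04 with IFN-γ in the presence of E. coli (-0.20 to 0.43 with a library left out) and Slamf9 by -0.02 between IFN-γ + ACs and E. coli + ACs (-0.09 to 0.19). Leaving out libraries also turned Ly9 with E. coli (-0.33 to 0.11), Cd84 with IFN-γ (-0.17 to 0.12) and in the interaction (-0.01 to 0.28), Cd48 with IL-4 (-0.42 to 0.21) and with E. coli in the presence of IFN-γ (-0.10 to 0.15), and Slamf9 in IL-4 minus IFN-γ (-0.05 to 0.66). The causes were not tested. Upper quartile rescaling moved the median of all genes from -0.05 to -0.18 with both stimuli and from -0.04 to -0.15 for IFN-γ in the presence of E. coli, and the calls over all genes with both from 1494 higher and 1746 lower to 1155 and 2200, with IFN-γ from 1160 and 1013 to 966 and 1247, and for IFN-γ in the presence of E. coli from 995 and 973 to 769 and 1352. Calls with IL-4 over all genes were 79 higher and 37 lower, beside 127 and 85 in edgeR, 128 and 81 in DESeq2, 125 and 83 with no filter, 116 and 105 with all 18 libraries in 1 fit and 345 and 311 without replicate 3. Leaving out 1 library gave as few as 47 in all with IL-4, and for the interaction as few as 400 in place of 756, beside 495 with all 18 libraries in 1 fit.

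The labels state no pairing, and same-numbered libraries of IFN-γ + ACs and the combined stimulus had the highest correlations of deviations (0.17, 0.18 and 0.25). In a fit of those 6 libraries, chosen after seeing the data, 4 receptors were called for E. coli in the presence of IFN-γ with the replicate block and 4 without it, and 1261 and 1090 genes in all. With the replicate block over all libraries of a fit, 2, 5, 4 and 0 receptors were called with E. coli, IFN-γ, both and IL-4, Slamf9 with IFN-γ being the one gained (adjusted p = 0.049), and IL-4 calls over all genes were 45 higher and 29 lower. Depth limits Slamf8 and Slamf9 most, with under 50 reads in several groups of 3 libraries.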
